A study of Mus musculus with 6 samples.

Results

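The 7 genes Cyp1a1, Cyp1a2, Cyp1b1, Nqo1, Aldh3a1, Tiparp and Xdh encode enzymes that the aryl hydrocarbon receptor is known to induce. They were taken from a list of classical targets of the receptor, and each was read by the brightest probe set that the platform annotation pairs with its symbol alone. All 7 were measured, by 8 probe sets, among 22180 genes in all. Hippocampi were taken from hemibrains of 3 Ahr-KO mice and 3 wild-type mice, and each mouse gave 1 array. The labels describe the mice by genotype alone and name no ligand, so the genes were read without a stated inducer. The part of Ahr that the allele lacks is not given in the sources used here.

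The receptor, AHR, waits in the cytoplasm bound to HSP90 and its co-chaperones. Dioxin-like pollutants, plant indoles and tryptophan metabolites bind it and send it to the nucleus, where it pairs with ARNT and binds DNA elements with the core GCGTG. The cytochromes P450 of family 1 are its best known targets and are used as the standard readout of its activity in liver and lung. In brain they are known mainly from vessels and from tissue exposed to ligand, and their level without ligand is usually low.

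The stretch in front of the gene start is shown for the 3 members whose stretch holds that core. Whether the receptor pair binds these copies was not tested. The RefSeq promoter table of build GRCm38.p6 held 5 of the 7 genes, and Aldh3a1 and Xdh had no entry. Each line gives the 250 bases before the annotated start, 5′ to 3′ on the strand of the gene, with the core or its reverse complement in capitals. Cyp1a1 lies at chr9:57697363-57697612 on the plus strand, Cyp1b1 at chr17:79715062-79715311 on the minus strand and Tiparp at chr3:65528197-65528446 on the plus strand.
Cyp1a1: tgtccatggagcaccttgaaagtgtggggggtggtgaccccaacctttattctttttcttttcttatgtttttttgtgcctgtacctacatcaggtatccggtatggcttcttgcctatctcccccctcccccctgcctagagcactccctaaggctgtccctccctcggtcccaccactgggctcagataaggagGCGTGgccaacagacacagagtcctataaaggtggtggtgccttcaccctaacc
Cyp1b1: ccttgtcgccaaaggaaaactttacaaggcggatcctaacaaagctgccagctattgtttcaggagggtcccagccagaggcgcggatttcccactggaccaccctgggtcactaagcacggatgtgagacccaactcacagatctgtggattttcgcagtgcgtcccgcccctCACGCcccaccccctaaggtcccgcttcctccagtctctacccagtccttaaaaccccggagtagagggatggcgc
Tiparp: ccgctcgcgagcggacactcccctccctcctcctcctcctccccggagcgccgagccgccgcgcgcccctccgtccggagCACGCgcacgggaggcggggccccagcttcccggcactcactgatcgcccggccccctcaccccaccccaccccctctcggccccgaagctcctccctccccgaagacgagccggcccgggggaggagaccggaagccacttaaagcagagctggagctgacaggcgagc

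The core began 54 bases before the start of Cyp1a1 in the forward direction. It began 76 bases before the start of Cyp1b1 and 170 bases before that of Tiparp as CACGC, its reverse complement. Cyp1a2 and Nqo1 held no copy in their windows. On either strand the core occurred in 28.2% of 32851 promoter windows of the same length, so 3 of 5 genes is a description of letters and not of binding. The longer form TNGCGTG, which contains the core, occurred in 4.1% of all windows and in 0 of these 5. The antioxidant response core TGACNNNGC, read by the stress factor NRF2, occurred in 10.2% of all windows and in 0 of these 5. Known enhancers of these genes can lie farther out than 250 bases, beyond what was searched.

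The arrays had nearly equal distributions, with medians of 5.79 to 5.85 log2 over the 41345 rows. Of the hippocampal neuron markers 11 of 11 lay above the array median on every array, as did 9 of 9 general neuron markers. The same held for 11 of 11 astrocyte markers and the 11 oligodendrocyte markers measured. This bar therefore does not tell hippocampus from other brain tissue. Ahr itself read 6.62, 6.91 and 6.74 log2 on the Ahr-KO arrays and 7.68, 7.50 and 7.44 on the wild-type arrays, with no overlap. It was 1.72-fold lower in Ahr-KO and missed the threshold over all genes (limma adjusted p = 0.320), and whether its 1 probe set reads the deleted part is not given. 2 arrays stood apart, Ahr-KO array 1 and wild-type array 2, on which Ttr, the main secreted product of choroid plexus, read 13.15 and 12.64 log2 against 8.64 to 9.06 on the other arrays. Of 12 choroid plexus markers 10 were measured, with a mean level of 5.997 to 7.78 log2 over the Ahr-KO arrays and 5.94 to 7.25 over the wild-type arrays. A list score below is the average deviation of the genes of a list on an array, where each gene is centred on its own mean of the 6 arrays in log2 units. The choroid plexus score was 1.27 and 0.75 on those 2 arrays and -0.57 to -0.46 on the rest. Ahr-KO array 1 also had the lowest oligodendrocyte score (-0.33, 11 of 12 measured) and the lowest microglia score (-0.18, 10 of 11 measured). The differences of the 7 enzyme genes are given with and without these 2 arrays. Ahr, Arnt, Ahrr, the marker lists, the pathway lists and the genes named from them are given with all arrays only. In pieces of tissue, fewer cells of a type and less RNA per cell cannot be told apart.

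No enzyme gene differed between genotypes past an adjusted p of 0.05. By limma 0 of the 7 passed, with adjusted p from 0.797 to 0.989, and among all genes 0% passed. At an unadjusted p under 0.05 1 of the 7 was higher in Ahr-KO and 0 were lower, where 3.53% of all genes were higher and 2.65% lower. The higher one was Xdh. The genotypes did not overlap for 1 member, again Xdh, with 6.18% of all genes higher and 5.75% lower without overlap. The mean was higher in Ahr-KO for 6 members and lower for 1. Their median difference was 0.12 log2, beside 0.0019 over all genes, of which 50.7% averaged higher in Ahr-KO. The members' median was 0.04 without Ahr-KO array 1 and also without wild-type array 3, and 0.08 without the 2 arrays high in choroid plexus genes. An exact permutation test between 3 and 3 arrays cannot go below p = 0.1, so none was run.

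**Figure D1:**
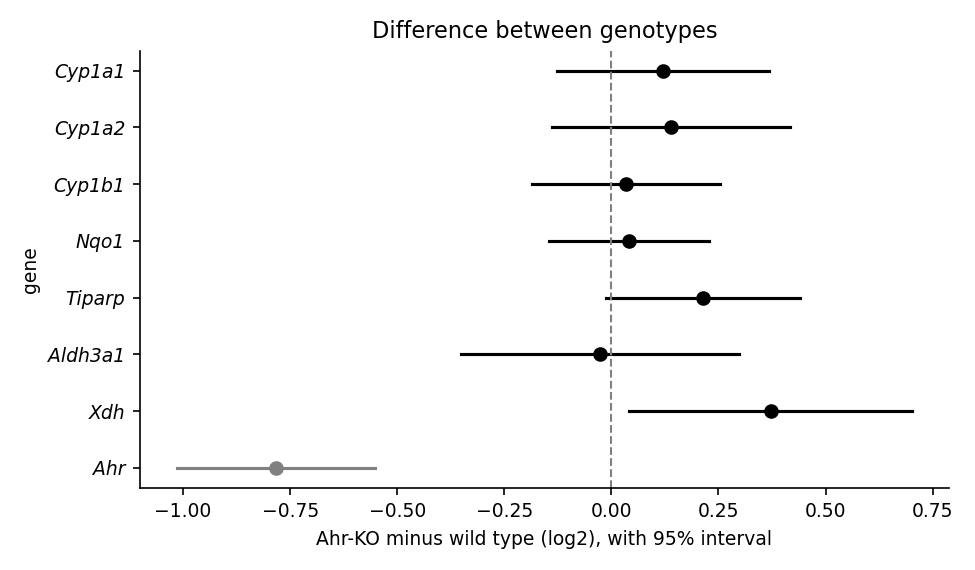
Differences, Ahr-KO minus wild type, on the log2 scale (x axis) for the 7 enzyme genes (black) and Ahr (grey), one gene a row. Points are limma estimates and lines their 95% intervals (n = 3 arrays a genotype). The intervals of 6 of the 7 enzyme genes hold 0, that of Xdh lies above it and that of Ahr below it.

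Where an interval holds a fall of the probe set signal, its lower end gives the largest such fall. The interval of Xdh holds none. The lowest belonged to Aldh3a1, at -0.35 log2, or 1.28-fold lower in Ahr-KO. The interval of no member reached a fall of 1 log2. Whether the 5 members below the array medians were detected was not tested, so this holds for the signal and not for the amount of transcript. The intervals reached 0.19 to 0.33 log2 to either side of the estimate, against a median reach of 0.21 over all genes.

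5 of the 7 genes read below the median of their array on all 6 arrays, namely the 3 P450 genes, Aldh3a1 and Xdh. Nqo1 read slightly above it on all 6 arrays and Tiparp well above it. That median covers all rows of an array, with and without a gene symbol. The median of the genes tested was 6.49 to 6.52 log2, above every value of Nqo1 and below every value of Tiparp. Relative to the array median, Cyp1b1 averaged -0.19 log2 in Ahr-KO and -0.21 in wild type, Cyp1a1 -0.41 and -0.52, and Cyp1a2 -0.75 and -0.88. Nqo1 averaged 0.22 log2 above the median in Ahr-KO and 0.19 above it in wild type. Tiparp stood 2.10 log2 above the median in Ahr-KO and 1.90 above it in wild type, higher than 73.8% to 79.2% of the rows of an array. The lowest reading of any member, at the 28.6 percentile, was that of Xdh in wild type. The brightness of a probe set depends on its sequence, so these levels place a gene on its array and do not rank the genes by transcript number.

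**Figure D2:**
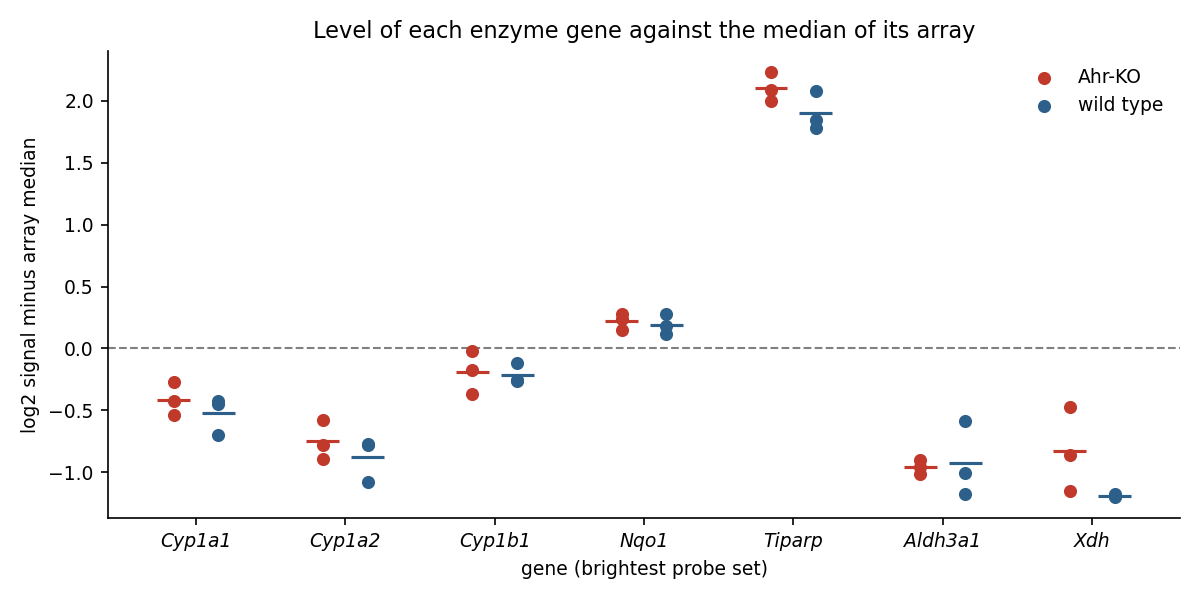
Log2 signal minus the median of the array (y axis) for each of the 7 genes (x axis), with Ahr-KO points in red on the left and wild-type points in blue on the right. Each point is 1 array and each bar the mean of 3. Tiparp and Nqo1 lie above the dashed median line on all 6 arrays and the other 5 genes below it.

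Cyp1a1 and Cyp1a2 encode the P450 enzymes that oxidise polycyclic aromatic hydrocarbons and aromatic amines, and they are neighbours on chromosome 9. Cyp1a1 read 5.58, 5.37 and 5.27 log2 on the 3 Ahr-KO arrays and 5.36, 5.38 and 5.12 on the 3 wild-type arrays. The genotypes overlapped, with the highest value on Ahr-KO array 1 and the lowest on wild-type array 3. The means were 5.41 ± 0.16 log2 in Ahr-KO and 5.29 ± 0.14 in wild type (SD, n = 3 each), a difference of 0.12 with a 95% interval of -0.13 to 0.37. As a ratio to wild type the interval ran from 0.915 to 1.29. Without the 2 arrays high in choroid plexus genes the difference was 0.08, and without Ahr-KO array 1 or wild-type array 3 alone it was 0.03 or 0.04.

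Cyp1a2 read 5.28, 4.90 and 5.03 log2 in Ahr-KO and 5.04, 5.02 and 4.74 in wild type. Its highest and lowest arrays were the same as those of Cyp1a1, and the genotypes overlapped. It averaged 5.07 ± 0.19 log2 in Ahr-KO and 4.93 ± 0.17 in wild type (SD, n = 3 each), and the difference was 0.14 (95% interval -0.14 to 0.42). Without the 2 arrays high in choroid plexus genes it was 0.08. With 1 array left out it was 0.04 without Ahr-KO array 1 or wild-type array 3 and 0.22 without Ahr-KO array 2. The part of choroid plexus tissue in the values of these neighbours was not tested beyond leaving those arrays out.

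Cyp1b1 encodes the family 1 enzyme that acts mainly outside the liver and hydroxylates oestradiol. It read 5.48, 5.62 and 5.80 log2 in Ahr-KO and 5.55, 5.68 and 5.56 in wild type. The highest and the lowest of the 6 values were both Ahr-KO arrays, so the wild-type values lay inside the range of the Ahr-KO ones. The means of 5.63 ± 0.16 and 5.60 ± 0.07 log2 in Ahr-KO and wild type (SD, n = 3 each) differed by 0.03 (95% interval -0.19 to 0.25). Without Ahr-KO array 3 the sign turned, to -0.05, and without the 2 arrays high in choroid plexus genes the difference was 0.15. Meningeal and fibroblast markers, cells in which this gene is known to be active, had scores of -0.03 to 0.06 in Ahr-KO and -0.09 to 0.04 in wild type (13 of 13 measured, mean levels 7.50 to 7.60 and 7.44 to 7.57 log2). Their score was highest on Ahr-KO array 1, where Cyp1b1 was lowest, and their part in the Cyp1b1 values was not tested.

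**Figure D3:**
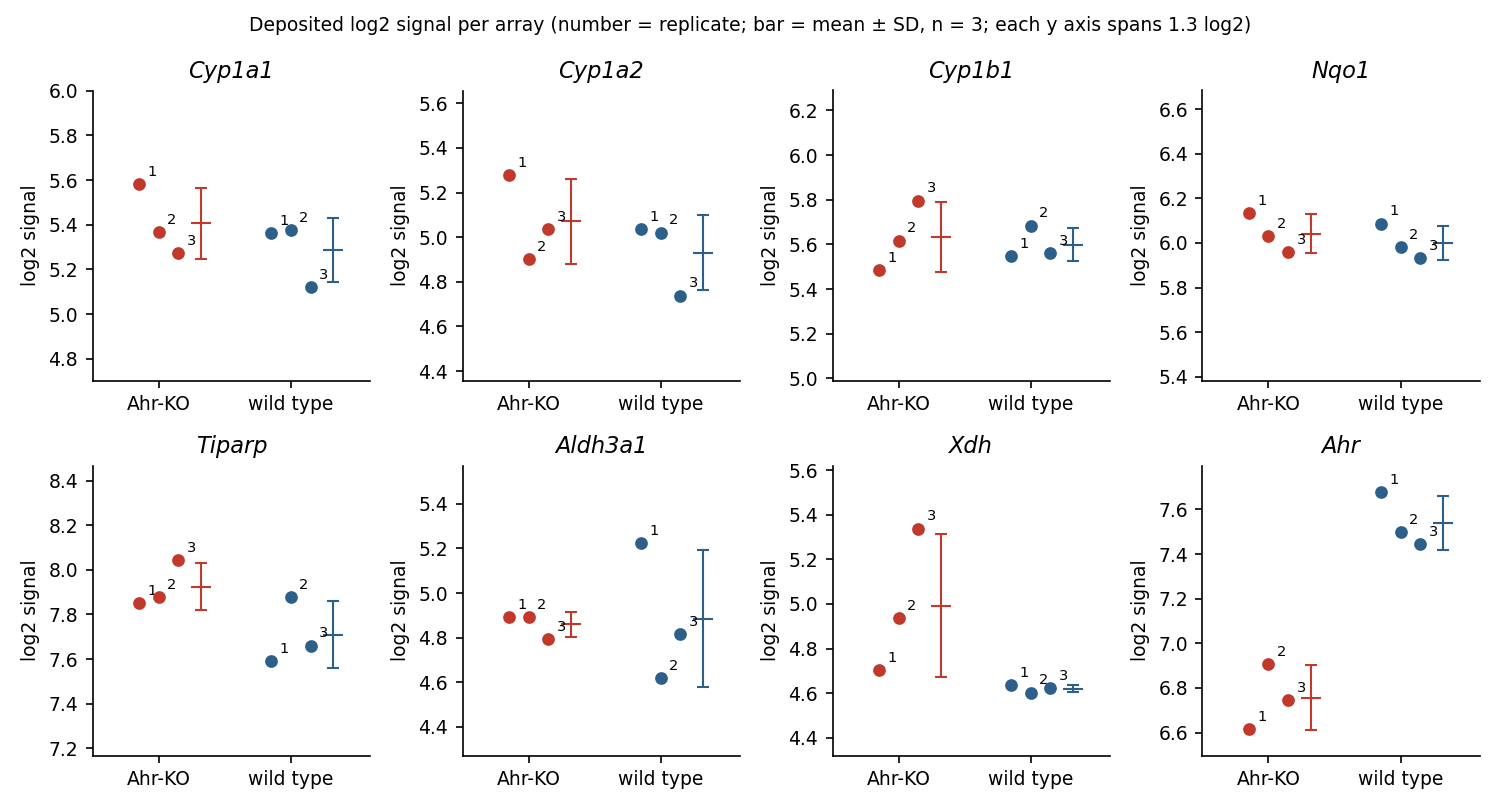
Deposited log2 signal (y axis, spanning 1.3 log2 in each panel) of the 7 enzyme genes and Ahr in Ahr-KO (red, left) and wild type (blue, right). Each numbered point is 1 array and the bars are mean ± SD (n = 3). The genotypes separate for Xdh and Ahr and overlap for the other 6 genes.

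Nqo1 encodes a reductase that detoxifies quinones, and it is a target of both AHR and NRF2. It read 6.13, 6.03 and 5.96 log2 in Ahr-KO and 6.09, 5.98 and 5.93 in wild type. These were the tightest values of the 7 genes, with a residual SD above that of only 27.6% of all genes. It averaged 6.041 ± 0.087 log2 in Ahr-KO and 5.9997 ± 0.078 in wild type (SD, n = 3 each), and differed by 0.04 (95% interval -0.14 to 0.23). Without Ahr-KO array 1 the difference was -0.0050, and without both arrays high in choroid plexus genes it was -0.015.

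Aldh3a1 encodes an aldehyde dehydrogenase for aromatic and medium-chain aldehydes, best known from cornea and stomach. It read 4.89, 4.89 and 4.79 log2 in Ahr-KO and 5.22, 4.62 and 4.81 in wild type. The Ahr-KO values sat close together inside a wide wild-type range, whose highest point was wild-type array 1. The means were 4.86 ± 0.06 log2 in Ahr-KO and 4.89 ± 0.31 in wild type (SD, n = 3 each). This was the only member with a lower mean in Ahr-KO, at -0.03 (95% interval -0.35 to 0.30), and without wild-type array 1 the difference was 0.14. Without the 2 arrays high in choroid plexus genes it was -0.18.

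Tiparp encodes an ADP-ribosyltransferase, also called PARP7, that the receptor induces and that in turn restrains the receptor. It read 7.85, 7.88 and 8.04 log2 in Ahr-KO and 7.59, 7.88 and 7.66 in wild type. Wild-type array 2 lay among the Ahr-KO values and the other wild-type arrays lay below them. The means of 7.92 ± 0.11 log2 in Ahr-KO and 7.71 ± 0.15 in wild type (SD, n = 3 each) differed by 0.21 ± 0.10 (SE), or 1.16-fold, with a 95% interval of -0.01 to 0.44. It did not pass (limma, unadjusted p = 0.0608, adjusted p = 0.817). Without the 2 arrays high in choroid plexus genes the difference was 0.34, at an unadjusted p of 0.0166 and a limma adjusted p of 0.769. A second probe set of Tiparp, much dimmer at a mean of 3.25 log2, differed by 0.10 (95% interval -0.08 to 0.28).

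Tiparp is known to respond to neuronal and growth factor stimulation as well, so immediate early genes were read beside it. Their score was -0.09 to 0.34 in Ahr-KO and -0.28 to 0.01 in wild type (18 of 18 measured). At unadjusted p under 0.05, 2 were higher and 0 lower, where 3.53% of all genes were higher and 2.65% lower. Their differences were positive for 17 of the 18, beside 50.7% of all genes, with a median of 0.21 log2. Their mean level was 7.98 to 8.41 log2 over the Ahr-KO arrays and 7.79 to 8.08 over the wild-type arrays. The score was lowest on wild-type array 2 (-0.28), where Tiparp was highest among the wild-type arrays, and highest on Ahr-KO array 2 (0.34). On Ahr-KO array 1 it was -0.09, below wild-type arrays 1 and 3. Their part in the Tiparp values was not tested.

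Xdh encodes xanthine dehydrogenase, which turns hypoxanthine and xanthine into uric acid in the last steps of purine breakdown. It read 4.70, 4.94 and 5.34 log2 in Ahr-KO and 4.64, 4.60 and 4.62 in wild type. Every Ahr-KO value lay above every wild-type value, and the lowest Ahr-KO value, on array 1, lay close to the wild-type ones. The spread differed, with means of 4.99 ± 0.32 log2 in Ahr-KO and 4.62 ± 0.02 in wild type (SD, n = 3 each). The difference was 0.37 ± 0.14 (SE), or 1.29-fold, with a 95% interval of 0.04 to 0.70, and it did not pass over all genes (limma, unadjusted p = 0.0319, adjusted p = 0.797). The limma interval and p pool the spread of both genotypes, and no fit with unequal spread was run. The residual SD of Xdh was above that of 91.1% of all genes. Without Ahr-KO array 3 the difference was 0.20 (unadjusted p = 0.0827, limma adjusted p = 0.972). Without the 2 arrays high in choroid plexus genes it was 0.51 (unadjusted p = 0.00981, limma adjusted p = 0.769). All 6 values lay below the array medians.

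Xdh is known from capillary endothelium, so vessel markers were read beside it. The score of endothelial and mural markers was 0.01 to 0.08 in Ahr-KO and -0.06 to 0.01 in wild type (19 of 19 measured). At unadjusted p under 0.05, 3 were higher and 0 lower, where 3.53% of all genes were higher and 2.65% lower. Their mean level was 7.55 to 7.61 log2 over the Ahr-KO arrays and 7.47 to 7.54 over the wild-type arrays. The score was highest on Ahr-KO array 3, where Xdh was highest too, and their part in the Xdh difference was not tested. Astrocyte markers had scores of -0.07 to 0.02 in Ahr-KO and -0.01 to 0.03 in wild type (11 of 11 measured, 1 higher and 1 lower at that p).

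**Figure D4:**
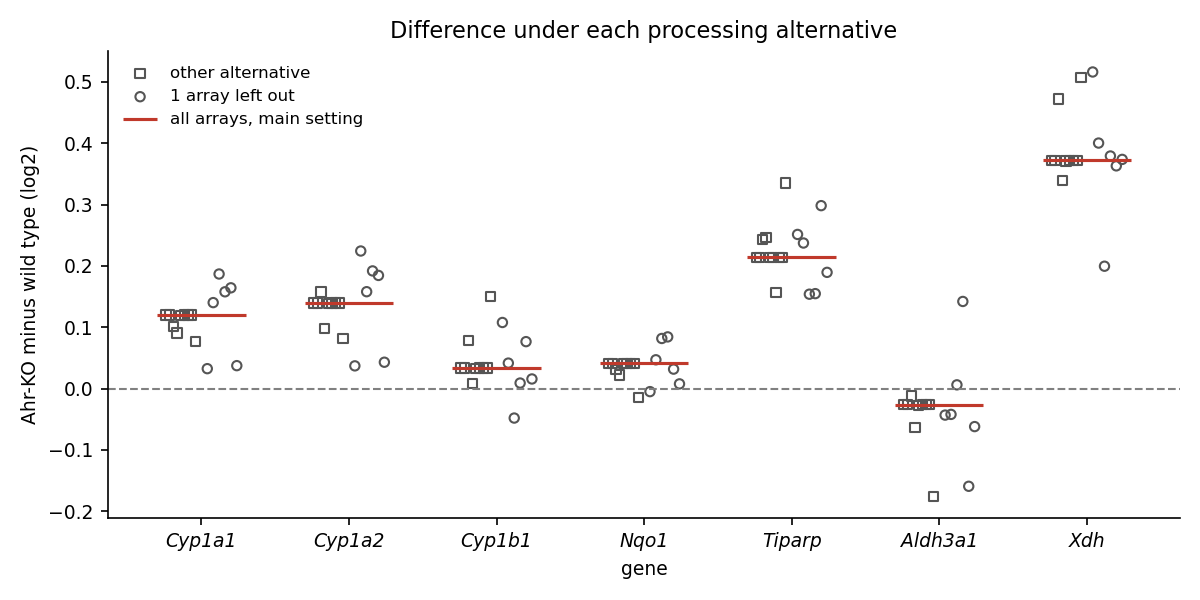
Differences, Ahr-KO minus wild type (y axis, log2), of the 7 genes (x axis) with all arrays (red bar), under other processing alternatives (squares) and with 1 array left out (circles). Cyp1b1, Nqo1 and Aldh3a1, with 15 alternatives each, cross 0 in 5 values together. The other 4 genes stay above 0, Xdh between 0.20 and 0.52.

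For each member the gene with the most similar pattern was found by the root mean square (RMS) difference over the 6 arrays between the deviations of both genes from their own means, among 17143 candidate genes. Closest were Espl1 for Cyp1a1 (0.014 log2), Fcrl1 for Nqo1 (0.017), Gpr37 for Cyp1b1 (0.025), Sema5a for Tiparp (0.035) and Nkx6-3 for Cyp1a2 (0.039). Aldh3a1 was closest to Pla2g4e (0.041) and Xdh to Etnppl (0.053). The members' own RMS deviations were between 0.07 for Nqo1 and 0.26 for Xdh. With 6 arrays and this many candidates the matches are a description only, and no 2 members shared one.

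The rest of the pathway and of the reactions around these enzymes was read from 7 lists of 97 genes, of which 85 were measured. By limma 0 passed over all genes, and at unadjusted p under 0.05 5 were higher and 1 was lower in Ahr-KO. Together these were 7.06% of the 85, where 6.18% of all genes passed in either direction. The median difference was 0.02 log2.

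Of the receptor complex and its coactivators 10 of 12 genes were measured, 1 lower and 0 higher at that p, and the lower one was Ahr. Arnt, the partner of AHR on DNA, read 8.97, 8.80 and 8.87 log2 in Ahr-KO and 9.04, 9.06 and 9.01 in wild type. Every Ahr-KO value of Arnt was the lower, by -0.16 ± 0.08 (SE), without passing (limma adjusted p = 0.817). Ahrr, the repressor of the receptor and itself a target, read 4.64, 4.61 and 4.58 log2 in Ahr-KO and 4.66, 4.68 and 4.63 in wild type, overlapping, at -0.05 (95% interval -0.20 to 0.11).

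Of 17 other target genes 12 were measured, with 2 higher and 0 lower and a median difference of 0.03 log2. Ptgs2, the inducible cyclooxygenase, averaged 9.60 ± 0.22 log2 in Ahr-KO and 9.18 ± 0.24 in wild type (SD, n = 3 each). Slc7a5, a large neutral amino acid transporter, averaged 9.85 ± 0.12 and 9.53 ± 0.22 log2 in Ahr-KO and wild type. Both overlapped between genotypes (limma adjusted p = 0.783 and 0.797).

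Among 14 of 16 NRF2 pathway genes, which protect against oxidants, 1 was higher and 0 were lower, with a median difference of 0.0097 log2. The higher one was Ephx1, microsomal epoxide hydrolase, which acts on epoxides that P450 enzymes make. It read 8.59, 8.43 and 8.43 log2 in Ahr-KO and 7.99, 8.35 and 8.12 in wild type, without overlap (0.33 ± 0.10, SE, limma adjusted p = 0.770). Slc7a11, the cystine transporter, differed by -0.20 ± 0.10 (SE) and overlapped.

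Electron donors and relatives of the P450 and quinone reductase enzymes (5 of 6 measured) had 0 lower genes and 1 higher one, Cyb5r3, the reductase of cytochrome b5. It averaged 11.13 ± 0.09 log2 in Ahr-KO and 10.91 ± 0.09 in wild type (SD, n = 3 each), without overlap (limma adjusted p = 0.797). Cyb5a, cytochrome b5, differed by -0.06 ± 0.09 (SE). All 13 other aldehyde dehydrogenases were measured and 0 passed at unadjusted p, with Aldh1a1, which makes retinoic acid, at -0.23 ± 0.15 (SE) and Aldh3b1 at 0.12 ± 0.10.

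Around Xdh, 16 of 16 genes of purine breakdown and of the molybdenum cofactor were measured, with 1 higher and 0 lower and a median difference of 0.03 log2. The higher one was Mocs1, which starts the synthesis of the cofactor that xanthine dehydrogenase needs. It averaged 7.86 ± 0.05 log2 in Ahr-KO and 7.66 ± 0.09 in wild type (SD, n = 3 each), without overlap (limma adjusted p = 0.797). Aox4, an aldehyde oxidase with the same cofactor, differed by -0.16 ± 0.09 (SE). Around Tiparp, 17 of 19 ADP-ribosyltransferases and hydrolases were measured and 0 passed at unadjusted p, with the hydrolase Adprhl2 at -0.28 ± 0.13 (SE) and Parp12 at 0.22 ± 0.12.

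**Figure D5:**
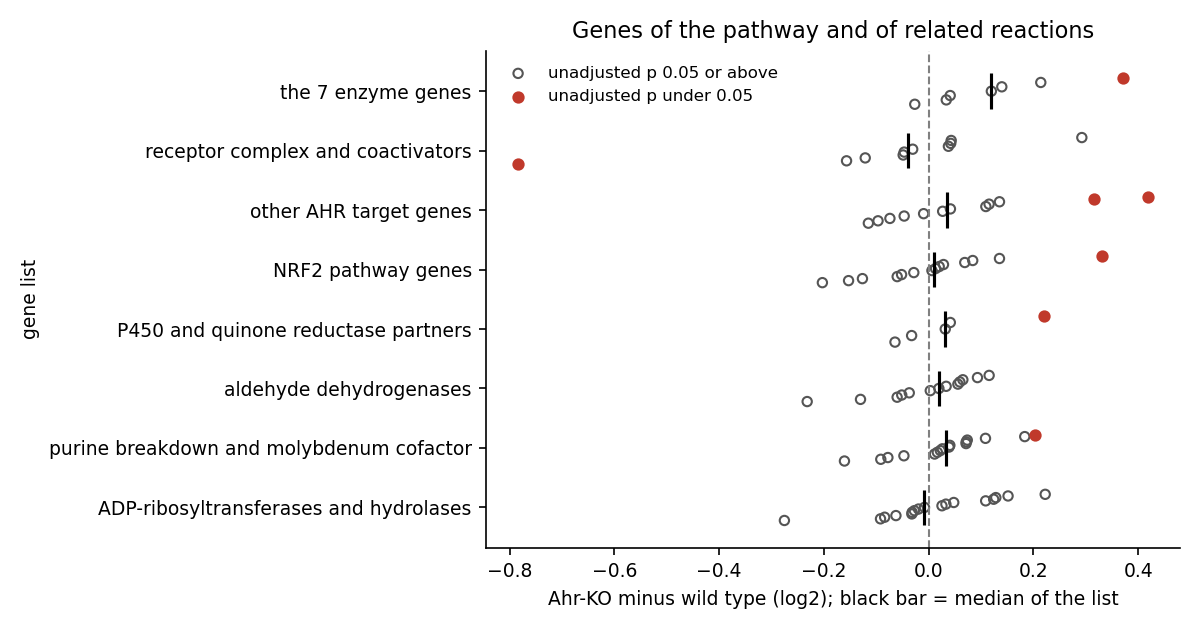
Differences, Ahr-KO minus wild type (x axis, log2), of the measured genes of each list, one list a row. Points are genes, filled red at an unadjusted p under 0.05, and black bars are list medians. The medians of the 7 pathway lists lie between -0.04 and 0.03, that of the 7 enzyme genes at 0.12, and Ahr is the point at -0.78.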

How the data were processed

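Per the labels' protocols, Trizol extracts of total RNA were labelled with biotin for whole-transcript arrays. The authors deposited 1 log2 signal for each probe set and array, made with RMA in Affymetrix Expression Console (no version given) per the submitters' processing notes. RMA subtracts background, equalises the distributions of the arrays and combines probes, which tends to compress folds of dim genes. Detection calls and scan dates were not used here.

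Of 41345 rows 23521 carried 1 gene symbol, 1814 several and 16010 none. Symbols were updated by Entrez ID to RefSeq (GRCm38.p6), which held 23328 of them, and the brightest probe set per gene was kept. The test was limma 3.58.1 under R 4.3.3 (lmFit, eBayes with no trend, two-sided, Benjamini-Hochberg over 22180 genes, no covariate, threshold 0.05), and the test was tried on simulated data. No filter on dim probe sets was used, so every member was tested. The number of arrays limits the precision. The members, gene lists and the choice to leave out 2 arrays were made with earlier results of these data known. Genes named are the members, Ahr, Arnt, Ahrr, the 2 genes of each pathway list with the lowest unadjusted p, the closest gene in pattern to each member, and Ttr. Mid1 and Prelp are named outside this rule. Predicted genes, small RNAs and odorant, taste and pheromone receptor genes were passed over as closest genes. Alternatives covered the variance model, array weights, normalization, a filter on dim probe sets, the choice of probe sets, a replicate block and left-out arrays.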

Additional observations from a re-analysis of the deposited data

How the results depend on the processing

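No member passed an adjusted p of 0.05 under any of 16 alternatives. Of 106 member differences recomputed, 101 kept their direction and 5 turned. The intensity trend, robust variance model, replicate block and test over all probe sets leave each difference unchanged. Their values could not turn, and all 5 that turned came from fits that left out arrays. The filter at the median of all genes left only Tiparp among the members. Over fits leaving out 1 array, Cyp1b1 ran from -0.048 to 0.11, Nqo1 from -0.0050 to 0.084 and Aldh3a1 from -0.16 to 0.14 log2, and without both arrays high in choroid plexus genes these were 0.15, -0.015 and -0.18. In the same fits Xdh ran from 0.20 to 0.52 and Tiparp from 0.15 to 0.30. The number of members past an unadjusted p of 0.05, 1 with all arrays, was 2 with an intensity trend, with array weights and without both choroid plexus arrays, each time Tiparp and Xdh. It was 0 to 1 with 1 array left out, and 0 without Ahr-KO array 3, wild-type array 1 or wild-type array 3. With quantile normalization, or without wild-type array 2, the 1 member was Tiparp and not Xdh. Over all genes 0 passed, but 2 with an intensity trend, Mid1 and Prelp, neither of them a member and both named after their values were seen. The replicate block gave 0 members past the adjusted threshold and an adjusted p of 0.926 for both Tiparp and Xdh. The deviations of same-numbered arrays from their group means correlated at -0.15, -0.22 and 0.05. The highest value between genotypes was 0.23, for Ahr-KO array 2 with wild-type array 1. Ahr-KO array 1 correlated best with wild-type array 2 (0.18). Whether same-numbered arrays were handled together was not tested. Causes of these shifts were not tested. Signal over background was not measured here, so whether the 5 members below the array medians were detected was not tested.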

Other observations

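The 7 genes were also compared with each other over the 6 arrays, in 21 pairs. Cyp1a1 and Nqo1 gave Pearson's r = 0.87 (exact permutation p = 0.0167, adjusted p = 0.350) and Spearman's rho = 0.77 (exact permutation p = 0.103, adjusted p = 0.432). Without Ahr-KO array 1 and wild-type array 3, the arrays farthest from the median of Cyp1a1, r was 0.55. The neighbours Cyp1a1 and Cyp1a2 gave r = 0.90 (exact permutation p = 0.0514, adjusted p = 0.373) and rho = 0.54 (exact permutation p = 0.297, adjusted p = 0.780). Without the same 2 arrays, which hold the extremes of Cyp1a1 and whose omission narrows its range, r was -0.35 over the other 4. After subtracting each genotype's mean, r was 0.87 for Cyp1a1 with Nqo1 and 0.88 for Cyp1a1 with Cyp1a2. No pair passed after adjustment over the 21 pairs, and 1 pair had an unadjusted p under 0.05 for r. The arrays of a pair share depth of signal, tissue makeup and normalization.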
